A study of Mus musculus with 12 samples.

Results

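Carboxylesterases are serine hydrolases that cut ester bonds in glycerides, sterol esters, drugs and environmental esters, and the mouse liver makes them in large amounts. The genes described here are 10 of them, chosen by symbol from the table of 56441 genes: 5 of family Ces1 (CES1C, CES1D, CES1E, CES1F and CES1G in the table), 3 of family Ces2 (CES2A, CES2E and CES2G) and 2 of family Ces3 (CES3A and CES3B). They are written below in the mouse spelling, as Ces1c. The table holds 20 carboxylesterase genes in all, and the other 10 are described further on as a separate list. All 10 chosen genes had at least 163 counts in every library and passed the filter on low counts.

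RNA of mouse liver was measured in 12 libraries, 3 in each of 4 groups. C57BL/6 mice fasted for 24 h had received AAV8 vector alone (fasted vector) or AAV8-FH, which carries fumarate hydratase (fasted FH). The ob/ob mice, which lack functional leptin and were kept on a high-fat diet, had received the same vector alone (ob/ob vector) or AAV8-FH (ob/ob FH). All mice were injected by tail vein at 6 to 8 weeks of age, 1 month before their livers were taken or the fast began. The ob/ob and the C57BL/6 groups differ in genotype, diet and fasting at once, so the part of each cannot be told apart. Fumarate hydratase makes malate from fumarate in the mitochondrial cycle, and the study asked how added FH protects against fatty liver. The virus is described as specific to the liver, with no promoter named. Whether the libraries of a group come from separate mice is not stated, and a p-value here reflects spread among libraries that could be technical.

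Most liver carboxylesterases stay inside the endoplasmic reticulum, held there by a short signal at the end of the protein, while a few are secreted into blood. Family Ces1 holds enzymes that release fatty acids from stored triacylglycerol and pass them to the assembly of very-low-density lipoprotein (VLDL), beside others that limit fat synthesis or serve mainly in the clearance of drugs. Family Ces2 enzymes prefer esters with a small acyl group, also cleave glycerides, and work in liver and intestine, and family Ces3 is made chiefly in the liver.

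All 20 genes lie on chromosome 8, in the order Ces1a to Ces1h, Ces5a, Ces2a to Ces2h, Ces3a, Ces3b and Ces4a in RefSeq. Gene copies this alike can exchange reads in counting. In GENCODE M21 transcripts, Ces3a and Ces3b were 95.36% identical over 2046 aligned bases, and 30.8% of the 50-base stretches of Ces3a were also found in another carboxylesterase transcript. For Ces3b that share was 26.1%, for Ces1c 13.4%, with Ces1b as its nearest copy (91.38% identical), and for the other 7 genes between 0.533% and 3.38%. The division of reads between Ces3a and Ces3b is therefore uncertain, and sums over the chosen genes of each family are given beside the single genes.

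RefSeq promoter sequence was matched for 7 of the 10 genes, all but Ces1d, Ces1f and Ces3a. The pair Ces1b and Ces1c is shown because their promoters are the most alike (93.27% identical over 223 aligned bases). Ces1g is shown because it had the largest difference between FH and vector among the 10 genes. Each line gives the 250 bases before the start site, 5′ to 3′ on the gene's own strand, from GRCm38.p6. The windows are chr8:93079941-93080190, chr8:93131284-93131533 and chr8:93337210-93337459, all on the minus strand. Capitals mark CCAAT and TATAAA, read on either strand.
Ces1b: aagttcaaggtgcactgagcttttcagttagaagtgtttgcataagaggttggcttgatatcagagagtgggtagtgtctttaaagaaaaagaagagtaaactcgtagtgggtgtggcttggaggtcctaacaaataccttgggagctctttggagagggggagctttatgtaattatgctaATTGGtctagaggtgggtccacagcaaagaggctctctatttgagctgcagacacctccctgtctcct
Ces1c: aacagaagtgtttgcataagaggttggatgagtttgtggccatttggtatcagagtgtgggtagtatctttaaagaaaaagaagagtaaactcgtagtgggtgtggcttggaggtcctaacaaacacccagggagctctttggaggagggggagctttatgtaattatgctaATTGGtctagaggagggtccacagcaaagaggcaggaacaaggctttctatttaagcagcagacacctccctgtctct
Ces1g: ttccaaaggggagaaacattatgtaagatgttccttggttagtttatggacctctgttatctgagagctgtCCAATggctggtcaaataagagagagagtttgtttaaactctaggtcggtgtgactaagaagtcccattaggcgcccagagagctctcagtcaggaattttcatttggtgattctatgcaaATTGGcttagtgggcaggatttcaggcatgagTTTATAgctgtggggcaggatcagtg

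The promoters of Ces2a, Ces2e and Ces2g are shown because they share a run of letters close to the start site. Their windows are chr8:104733753-104734002, chr8:104926010-104926259 and chr8:104961468-104961717, on the plus strand, and the capitals mark the shared run CAAATTCCTGC, which begins 23, 34 and 24 bases before the start site.
Ces2a: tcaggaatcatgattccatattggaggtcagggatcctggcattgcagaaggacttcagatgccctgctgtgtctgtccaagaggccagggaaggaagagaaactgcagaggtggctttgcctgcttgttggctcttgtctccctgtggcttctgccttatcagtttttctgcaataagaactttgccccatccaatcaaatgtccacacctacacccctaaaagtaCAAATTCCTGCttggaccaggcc
Ces2e: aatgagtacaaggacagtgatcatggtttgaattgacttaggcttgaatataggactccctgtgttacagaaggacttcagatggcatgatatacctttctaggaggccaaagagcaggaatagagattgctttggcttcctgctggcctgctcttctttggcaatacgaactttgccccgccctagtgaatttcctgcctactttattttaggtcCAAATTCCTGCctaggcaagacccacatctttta
Ces2g: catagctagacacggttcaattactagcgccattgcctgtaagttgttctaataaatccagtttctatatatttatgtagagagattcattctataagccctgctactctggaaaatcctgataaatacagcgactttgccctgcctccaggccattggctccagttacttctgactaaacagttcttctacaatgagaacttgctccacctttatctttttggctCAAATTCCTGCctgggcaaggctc
The run was taken as the longest one common to these 3 windows, so their matches were set in advance. Of 32536 promoter windows of this length, 8 held that run on either strand (0.0246%), and these 3 genes were among them. No window of Ces2c, Ces2f or Ces2h held it. Ces2a and Ces2e also share the 17 bases CAGAAGGACTTCAGATG, taken as the longest run common to their windows and found in those 2 only (0.00615%).

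Among short motifs searched on both strands, CCAAT was in 5 of the 7 promoters (33.8% of all windows) and TATAAA in 2 (12.3%). TTGCNNAA, a form of the C/EBP site, was in 3 of 7 (9.57%), AGGTCA, a site of nuclear receptors, in 1 (14.0%), and TCACNCCAC in 1 (1.04%). TGACNNNGC and CACGTG had no match in the 7 windows, against 10.2% and 6.04% of all windows. Some of these motifs can overlap one another, and a match is a description of letters only.

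Total counts ran from 12231828 to 14884323 (fasted vector), 19107050 to 25873379 (fasted FH), 12573267 to 14496559 (ob/ob vector) and 21632289 to 23506015 (ob/ob FH). Levels are in CPM, which is counts divided by library size, with the sizes scaled by TMM, a method that sets the typical gene equal between libraries. Its factors ran from 1.12 to 1.37 in vector and from 0.722 to 0.907 in FH libraries. Scaling to plain library totals moved the median of all genes from -0.04 to -0.71 (log2) in the fasted and from -0.01 to -0.63 in the ob/ob FH comparison, so FH values below are relative to the TMM scaling. For the 10 genes, values on library totals are given where they change a call or a direction. Fh1, the mouse gene of the delivered enzyme, was at 238 to 408 CPM in fasted vector, 719.9 to 925 in fasted FH, 106 to 141 in ob/ob vector and 616 to 801 in ob/ob FH libraries. Viral and own reads cannot be separated, since the sources used here do not name the species of the delivered sequence. The 3 ob/ob FH libraries had 116 to 234 CPM of Xist, the RNA of the inactive X chromosome, and 0 counts of the Y-linked Ddx3y, while the other 9 had at most 1.60 CPM of Xist and 74.3 to 137 CPM of Ddx3y. FH and these sex markers cannot be told apart in any comparison that uses the ob/ob FH group. Ob/ob vector replicate 2 stood apart from replicates 1 and 3 in Hsd3b5, a male-biased liver enzyme (334 against 0.058 and 0 CPM), and in the clock gene Dbp (0.42 against 35.7 and 36.7 CPM). Where a call or direction of the 10 genes changes without it, both values are given.

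The labels name hepatocytes. Hepatocyte markers led every library, with a summed level of 58976 to 98590 CPM over 15 genes in vector and 163376 to 225293 CPM in FH libraries. Markers of sinusoidal endothelium summed to 282 to 714 CPM and those of macrophages to 283 to 1042 CPM over the 12 libraries, so RNA of other liver cells was present. The adipocyte-defining Adipoq had group means of 0.017 to 0.805 CPM, and Plin1 and Lep were at or below 0.315 CPM. In bulk liver, fewer cells of a type and less RNA per cell cannot be told apart.

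**Figure D1:**
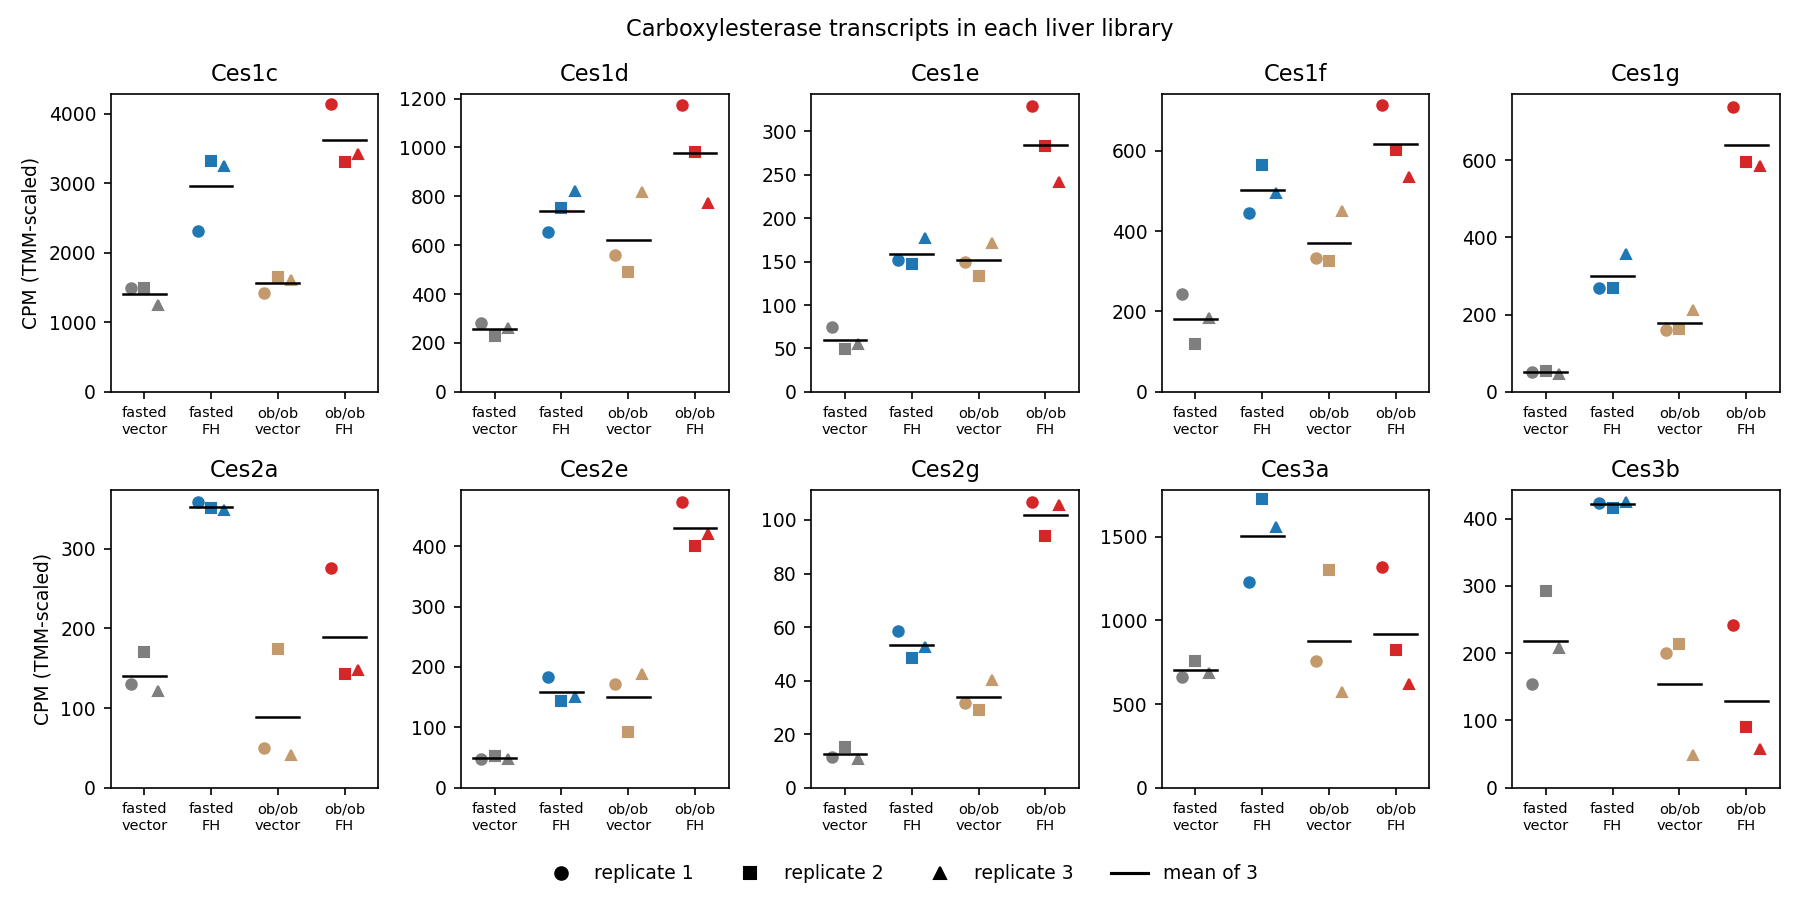
CPM (TMM-scaled, linear axes from 0) of each of the 10 carboxylesterase genes in each library, with 3 libraries per group as points and the group mean as a bar. In the fasted livers the FH points lie above the vector points in all 10 panels, while the ob/ob points with and without FH overlap for Ces1d, Ces2a, Ces3a and Ces3b.

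Per length of transcript, Ces1c was the highest of the 10 genes in every group, at 774 ± 77.4 CPM per kilobase (SD, n = 3) in fasted vector, 1619 ± 306 in fasted FH, 855 ± 67.8 in ob/ob vector and 1985 ± 248 in ob/ob FH libraries. Ces1c encodes a secreted esterase of rodent plasma. Ces2g had the lowest mean in every group, from 4.38 ± 0.80 to 35.7 ± 2.44 CPM per kilobase. In ob/ob FH libraries it overlapped with Ces3b, whose lowest library was at 23.7 CPM per kilobase. In fasted vector libraries Ces3a came second (344 ± 24.7 CPM per kilobase), apart from Ces1c above and from Ces1d below (128 ± 13.6). Ces1d, Ces1f, Ces3b and Ces2a followed, at 128 to 71.8 CPM per kilobase, each overlapping with the next, then Ces1e (28.7), Ces1g (21.3) and Ces2e (18.4). Of these last, Ces1g and Ces2e overlapped.

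The order was not the same in the other groups. In fasted FH libraries no 2 neighbours in the order overlapped: Ces1c, Ces3a, Ces1d, Ces1f (260 CPM per kilobase), Ces2a (180), Ces3b (175), Ces1g (125), Ces1e (76.7), Ces2e (59.0) and Ces2g (18.6). Ces2a and Ces3b nearly met, with the lowest Ces2a library at 177.6 and the highest Ces3b library at 176.7 CPM per kilobase. In ob/ob FH libraries Ces1d (487 ± 100 CPM per kilobase), Ces3a (450 ± 175), Ces1f (320 ± 46.7) and Ces1g (268 ± 35.8) each overlapped with the next, below Ces1c. Ces2e (160 ± 14.0) followed them by mean, then Ces1e (137), Ces2a (96.4) and Ces3b (54.0), each overlapping with the next. In ob/ob vector libraries Ces3a (429 ± 185) and Ces1d (311 ± 85.6) overlapped, and so did Ces1g, Ces1e, Ces3b, Ces2e and Ces2a, which ran from 74.6 to 45.1 CPM per kilobase.

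The first comparison asks what FH did in the fasted livers. All 5 Ces1 genes, all 3 Ces2 genes and Ces3a were higher with FH. Of the 10 genes, 9 were called higher and 0 lower (edgeR adjusted p under 0.05, with 27.4% of the 15228 genes tested called higher and 27.6% lower). No gene was lower at an unadjusted p under 0.05, and DESeq2 also called 9 higher and 0 lower. The libraries did not overlap for any of the 10 genes, against 30.4% of all genes that were higher and 30.6% that were lower without overlap. The median log2 difference of the 10 was 1.44, beside -0.04 over all genes tested. On library totals it was 0.77, 7 were called higher and 0 lower, and no gene changed direction. Hepatocyte markers moved the same way, with 13 of 15 higher and a median of 1.31 (8 of 15 and 0.65 on library totals), and their part in the result was not tested.

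Ces1g, an esterase that limits fat synthesis in the liver, stood at 52.4, 53.9 and 46.1 CPM in the fasted vector libraries and at 269.6, 269 and 358 CPM in the fasted FH libraries. The lowest FH library was well above the highest vector library. The difference was 5.88-fold (log2 2.56, SE 0.17, edgeR adjusted p = 1.26e-06), and 1.89 on the log2 scale on library totals. Ces1d, the triacylglycerol hydrolase that feeds VLDL, went from 282, 228 and 259 CPM to 652, 751 and 820.1 CPM, with no overlap (log2 1.53, SE 0.21, adjusted p = 4.92e-05). Its relative Ces1f, a triacylglycerol hydrolase as well, went from 244, 118 and 183 to 445, 565 and 495 CPM (log2 1.46, SE 0.23, adjusted p = 1.62e-04). Ces1e, the egasyn protein that holds β-glucuronidase in the endoplasmic reticulum, went from 74.2, 49.4 and 55.2 to 152, 147 and 177 CPM (log2 1.42, SE 0.17, adjusted p = 2.27e-05). None of these 3 genes overlapped, and Ces1f had the widest spread among its vector libraries. Ces1c was at 1493, 1499.8 and 1251 CPM in vector and at 2314, 3318 and 3244 CPM in FH libraries. That rise was the smallest of family Ces1, at 1.06 on the log2 scale (SE 0.18, adjusted p = 2.68e-04) and at 0.40 after scaling to library totals.

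In family Ces2, Ces2g had the largest rise, from 11.6, 15.1 and 10.9 CPM to 58.6, 48.6 and 52.7 CPM, a 4.25-fold difference (log2 2.09, SE 0.16, edgeR adjusted p = 1.62e-06). Ces2e, a hydrolase that also cleaves pyrethroid esters, went from 48.0, 53.3 and 47.7 to 183, 144 and 149.9 CPM (log2 1.68, SE 0.22, adjusted p = 3.19e-05). Both had FH libraries far above all vector libraries. Ces2a, a glyceride and drug esterase, went from 130, 171 and 121 to 358, 352 and 348 CPM without overlap. Its call (log2 1.33, SE 0.43, adjusted p = 0.0184) had a larger standard error than those of Ces2e and Ces2g. It was lost without replicate 1 (1.22, adjusted p = 0.0637) or replicate 3 (1.24, 0.0663) of the fasted vector group, and after scaling to library totals (0.66, 0.18).

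Ces3a went from 662, 759 and 688 to 1227, 1725 and 1557 CPM (log2 1.10, SE 0.30, edgeR adjusted p = 0.00708). Scaling to library totals ended its call (0.42, adjusted p = 0.203). Ces3b stood at 153, 292 and 208 CPM in vector and at 423, 416 and 425 CPM in FH libraries. The libraries did not overlap, but the difference did not pass the test (log2 0.95, SE 0.51, adjusted p = 0.130). With the fasted libraries fitted alone, or with no filter on low counts, Ces3b was called too.

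Summed over the chosen genes of each family, the fasted FH libraries were higher in all 3 families without overlap. The division of reads among the summed genes does not change such a sum. The Ces1 sum rose from 1963 ± 176 to 4659 ± 716 CPM (SD, n = 3), a ratio of 2.37. The Ces2 sum went from 203 ± 31.7 to 565 ± 30.5 CPM, a ratio of 2.79, and the Ces3 sum from 921 ± 120.1 to 1924 ± 250.5 CPM, a ratio of 2.09. These sums carry no test. On library totals the ratios were 1.49, 1.76 and 1.31. The Ces1 sum leaves out Ces1b, and the Ces2 sum leaves out Ces2c. With every row of the family summed (TMM scaling), the Ces1 and Ces2 ratios were 2.31 and 2.93.

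In the ob/ob livers FH went with higher Ces1 and Ces2 genes, and the Ces3 genes did not pass the test. The 5 Ces1 and 3 Ces2 genes were called higher and 0 genes were called lower (8 of 10, against 25.8% of all genes called higher and 27.9% lower). No gene was lower at an unadjusted p under 0.05, and DESeq2 called 7 higher and 0 lower. The libraries did not overlap for 6 of the 10 genes, all higher, against 30.6% of all genes higher and 31.2% lower. The median log2 difference of the 10 was 1.00, beside -0.01 over all genes. On library totals the median was 0.37, 4 genes were called higher (Ces1c, Ces1g, Ces2e and Ces2g) and Ces3a turned from 0.07 to -0.57. Hepatocyte markers were again higher for 13 of 15, with a median of 1.17 (on library totals 7 higher, 1 lower and 0.54), and their part was not tested.

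Ces1g again had the largest rise, from 160.1, 163 and 211 CPM with the vector to 738, 595 and 586 CPM with FH, 3.59-fold (log2 1.85, SE 0.17, edgeR adjusted p = 2.54e-06). Ces1c went from 1422, 1655 and 1613 to 4149.6, 3313 and 3425 CPM (log2 1.22, SE 0.18, adjusted p = 1.03e-04). Neither gene had a vector library near its FH libraries. Ces1e went from 149.6, 134 and 171 to 329.8, 283 and 242 CPM (log2 0.91, SE 0.17, adjusted p = 5.77e-04). Scaled to library totals the difference was 0.28 (adjusted p = 0.135). Ces1d overlapped between the groups, at 561, 491 and 817 CPM in vector and 1173, 979.7 and 772 CPM in FH libraries. It passed the test with a log2 difference of 0.65 (SE 0.20, adjusted p = 0.0163). Its call ended without ob/ob FH replicate 1 (0.48, adjusted p = 0.0910), without ob/ob vector replicate 1 (0.59, 0.0560), with only the ob/ob libraries in the fit (0.58, 0.0684) and on library totals (0.02, 0.940). Ces1f, at 334, 325 and 450.2 against 713, 602 and 535 CPM, did not overlap (log2 0.74, SE 0.23, adjusted p = 0.0148). Leaving out ob/ob FH replicate 1 ended its call (0.61, adjusted p = 0.0670), as did scaling to library totals (0.11, 0.682).

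Ces2e rose from 171, 92.6 and 188 to 473, 399.6 and 420.0 CPM (log2 1.52, SE 0.21, edgeR adjusted p = 6.22e-05), and Ces2g from 31.8, 29.2 and 40.3 to 107, 94.0 and 105 CPM (log2 1.59, SE 0.15, adjusted p = 3.58e-06). Both were called on library totals as well. Ces2a was uneven within the groups, at 49.4, 174 and 41.6 CPM in the vector and 276, 143 and 148 CPM in the FH libraries. Replicate 2, the vector library that stands apart, lay above 2 of the FH libraries. With it the difference was 1.10 (SE 0.43, adjusted p = 0.0445), and without it 2.07 (adjusted p = 1.24e-05). The call was lost when ob/ob FH replicate 1 (0.71, adjusted p = 0.210), ob/ob FH replicate 3 (1.22, 0.0505), ob/ob vector replicate 1 (0.82, 0.144) or ob/ob vector replicate 3 (0.77, 0.124) was left out, with DESeq2 (adjusted p = 0.0978), with RLE size factors (0.05002), with only the ob/ob libraries in the fit (1.02, 0.154), and after scaling to library totals (0.45, 0.363).

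The Ces3 pair varied within both ob/ob groups. Ces3a stood at 759.7, 1302 and 573 CPM with the vector and at 1317, 825 and 621 CPM with FH (log2 0.07, SE 0.30, edgeR adjusted p = 0.862), and Ces3b at 201, 214 and 49.3 CPM against 242, 90.2 and 57 CPM (log2 -0.25, SE 0.51, adjusted p = 0.698). In each group the highest library had more than double the lowest in Ces3a and more than 4 times the lowest in Ces3b. Both differences were smaller than this spread. Without ob/ob vector replicate 2 the values were 0.48 (adjusted p = 0.127) and 0.07 (0.922).

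The Ces1 sum went from 2885 ± 334 to 6146 ± 837 CPM in the ob/ob livers (SD, n = 3), a ratio of 2.13, and the Ces2 sum from 273 ± 22.1 to 722 ± 117 CPM, a ratio of 2.65. Neither overlapped. The Ces2 sum was even among the 3 vector libraries (252, 296 and 270.0 CPM) although Ces2a was not. For Ces3 the sums were 1033 ± 451 (vector) and 1051 ± 456 CPM (FH), a ratio of 1.02 with overlap. On library totals the 3 ratios were 1.38, 1.71 and 0.650.

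**Figure D2:**
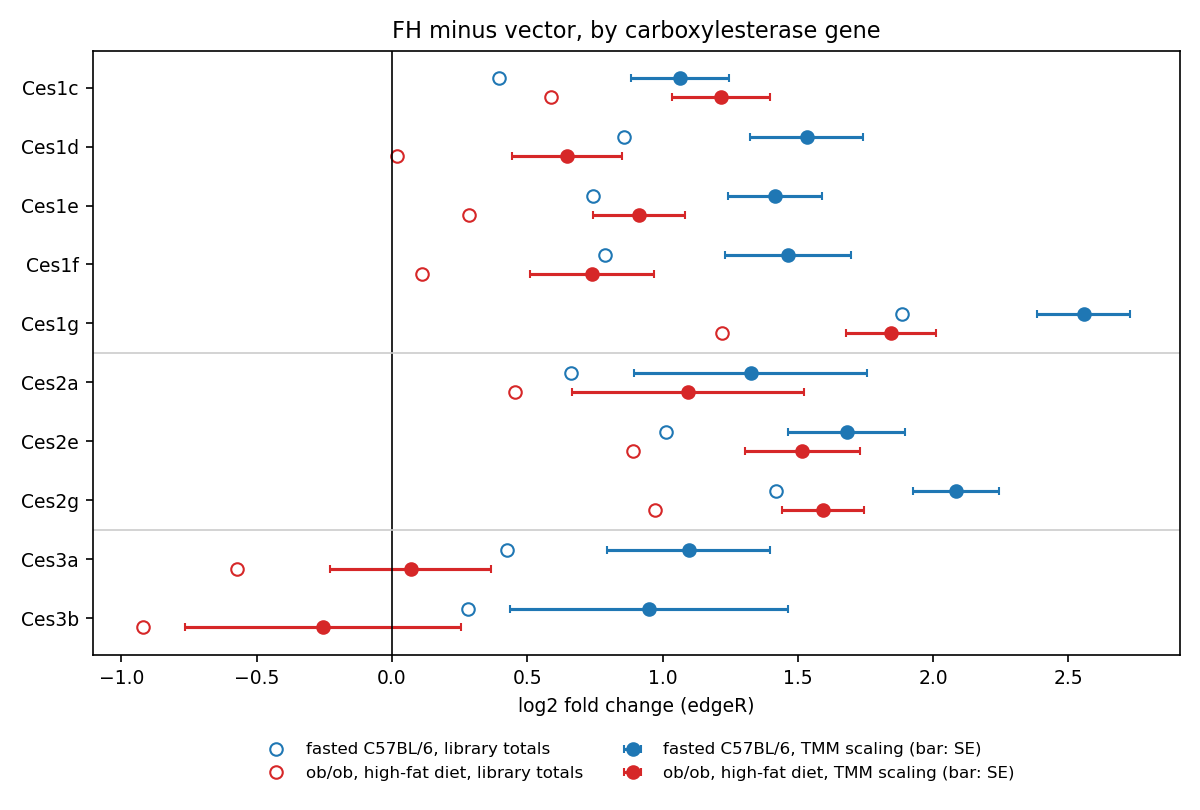
Log2 fold change of FH minus vector for each gene (edgeR, TMM scaling, filled points with the standard error as bars) in the fasted C57BL/6 (blue) and ob/ob (red) livers, with values on library totals as open points. Ces1g has the largest value in both models (2.56 and 1.85), and the Ces3 genes lie near 0 in the ob/ob livers (0.07 and -0.25).

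Whether FH acted differently in the 2 models was tested as the difference of its effects. None of the 10 genes passed (edgeR, with 8.42% of all genes called, 4.77% higher and 3.65% lower). DESeq2 called 2, Ces1d and Ces1g, and over all 15218 genes it called 930 higher and 732 lower. With edgeR an unadjusted p under 0.05 was found for 5, a count with no share over all genes to read it against. The difference, ob/ob minus fasted, was -0.89 for Ces1d (SE 0.29, edgeR adjusted p = 0.0738) and -0.71 for Ces1g (SE 0.23, 0.0728), and both passed without ob/ob vector replicate 2 (-1.03, 0.0228, and -0.77, 0.0471). Ces3a had -1.03 (SE 0.42, 0.146) and Ces3b -1.20 (SE 0.72, 0.333). Ces1f (-0.73, 0.181), Ces1e (-0.50, 0.212) and Ces2g (-0.49, 0.173) also had negative values. Ces1c (0.15, SE 0.25), Ces2a (-0.23, SE 0.60) and Ces2e (-0.16, SE 0.30) lay within 1 standard error of 0. Without the filter on low counts Ces1d, Ces3a and Ces3b passed, beside 1095 higher and 754 lower of 28566 genes. Beside this, 13 of 13 endothelial and 12 of 14 macrophage markers had a higher FH effect in the ob/ob than in the fasted livers, and their part was not tested. FH and the sex markers of the ob/ob FH libraries cannot be told apart in the difference.

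The ob/ob and fasted vector libraries were compared next, for the genes as they stood without added FH. Of the 10 genes, 6 were higher in the ob/ob livers and 0 lower (edgeR, with 9.36% of all genes called higher and 8.18% lower). No gene was lower at an unadjusted p under 0.05, and DESeq2 called 6 higher and 0 lower. The same 6, Ces1d, Ces1e, Ces1f, Ces1g, Ces2e and Ces2g, did not overlap (14.8% of all genes were higher without overlap and 14.8% lower). On library totals 6 were called higher and 0 lower, with the median of all genes at 0.20. Hepatocyte markers went the other way, with 1 of 15 higher and 7 lower. Of the markers of other cells, 7 of 13 endothelial were lower (1 on library totals) and 4 of 12 stellate higher (5), and their part was not tested.

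Ces1g was 3.50-fold higher in the ob/ob vector libraries, at 160.1 to 211 CPM against 46.1 to 53.9 CPM (log2 1.81, SE 0.17, edgeR adjusted p = 2.25e-05). Ces2e was at 92.6 to 188 against 47.7 to 53.3 CPM (log2 1.60, SE 0.21, adjusted p = 3.11e-04), and Ces2g at 29.2 to 40.3 against 10.9 to 15.1 CPM (log2 1.43, SE 0.16, 8.18e-05). Ces1e (log2 1.35, adjusted p = 2.47e-04), Ces1d (1.28, 0.00115) and Ces1f (1.02, 0.00838) were higher by smaller amounts. Ces1d is also made in fat tissue, and the 7 adipocyte markers together came to between 29.3 and 189.6 CPM per library with ob/ob vector, against 31.4 to 45.3 CPM with fasted vector. Most of the highest sum was the droplet protein gene Plin4 (184.6 CPM in ob/ob vector replicate 3), and their part in the Ces1d rise was not tested. Ces1c, the most abundant gene, had a log2 difference of 0.14 (SE 0.18, adjusted p = 0.638), and Ces3a (0.32, 0.507) and Ces3b (-0.50, 0.558) overlapped between the groups. Without ob/ob vector replicate 2 the Ces3a value turned to -0.075 (adjusted p = 0.878). Ces2a had -0.67 (SE 0.43, adjusted p = 0.312) with all libraries and -1.63 (2.41e-04) without ob/ob vector replicate 2, whose 174 CPM matched the highest fasted library at 171 CPM.

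With FH the ob/ob livers were higher than the fasted livers in 4 genes and lower in 1 (edgeR, with 18.6% of all genes called higher and 21.6% lower). The 4 were Ces2e (log2 1.44, SE 0.21, adjusted p = 2.17e-04), Ces1g (1.10, SE 0.16, 2.34e-04), Ces2g (0.94, SE 0.15, 3.74e-04) and Ces1e (0.84, SE 0.17, 0.00180), all without overlap (25.4% of all genes higher and 31.3% lower). Ces3b was lower, at 57 to 242 CPM against 416 to 425 CPM (log2 -1.70, SE 0.52, adjusted p = 0.0193). That call ended when replicate 2 (-1.49, adjusted p = 0.0804) or replicate 3 (-1.30, 0.0823) of the ob/ob FH group was left out. Ces3a had -0.71 (SE 0.30, adjusted p = 0.0737) and passed without ob/ob FH replicate 1 (-1.01, 0.0212). Ces2a was lower without overlap, at 143 to 276 against 348 to 358 CPM, and did not pass (-0.90, SE 0.43, adjusted p = 0.108). Ces1c (0.29, 0.208), Ces1d (0.40, 0.138) and Ces1f (0.30, 0.318) did not pass, and on library totals Ces1c (0.55, 0.0136) and Ces1d (0.64, 0.0166) did. With only the FH libraries in the fit Ces1d (0.47, 0.0257), Ces1f (0.37, 0.0356), Ces2a (-0.83, 0.00705) and Ces3a (-0.64, 0.0394) passed as well. That fit called many more genes, with 3602 of 13380 higher and 3269 lower. Beside these values, 13 of 13 endothelial, 12 of 14 macrophage, 9 of 12 stellate and 7 of 11 lymphocyte markers were higher in the ob/ob FH libraries and 10 of 15 hepatocyte markers lower, and their part was not tested. This comparison holds the sex markers together with the model, and the 2 cannot be told apart.

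**Figure D3:**
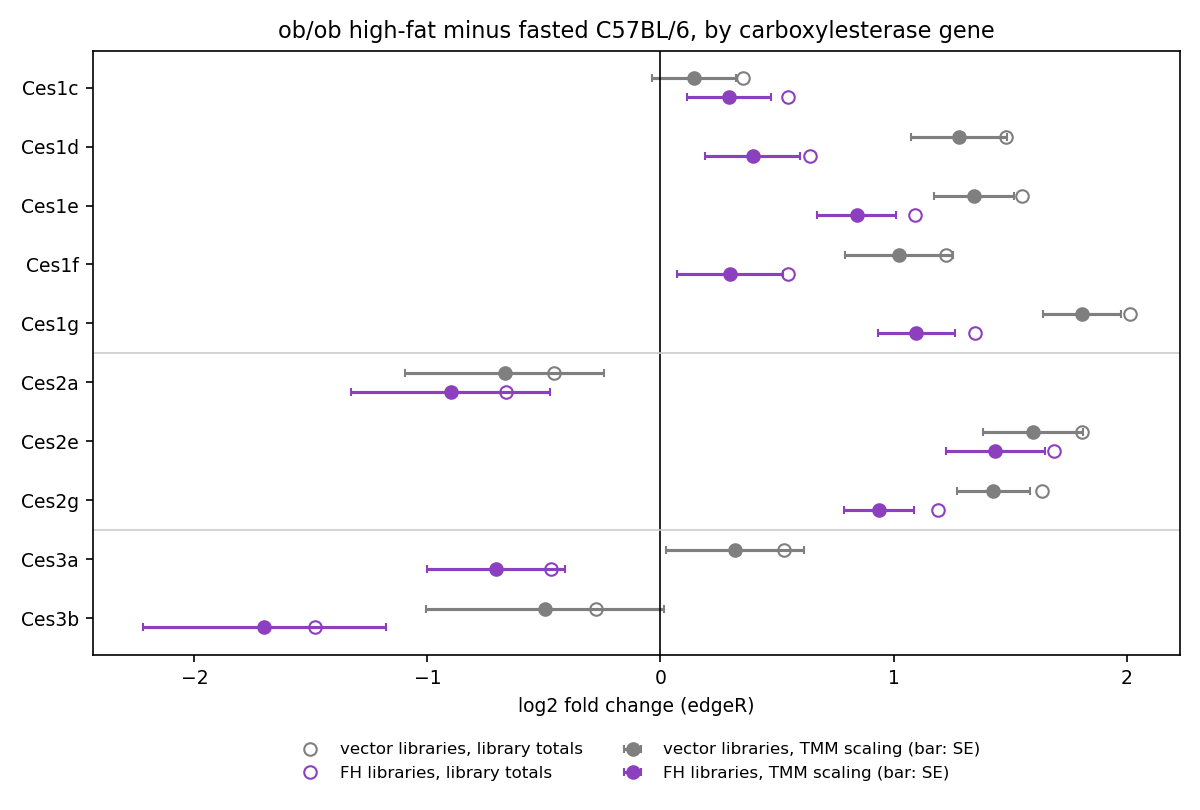
Log2 fold change of ob/ob minus fasted for each gene in the vector libraries (grey) and the FH libraries (purple), with standard errors as bars (edgeR, TMM scaling) and open points for library totals. Ces1e, Ces1g, Ces2e and Ces2g lie above 0 in both, while Ces3b lies at -0.50 and -1.70.

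The make-up of each family also differed between the groups, and shares within a family do not depend on the scaling. Ces1g made 2.44%, 2.77% and 2.57% of the counts of the 5 Ces1 genes in fasted vector libraries, 7.03%, 5.33% and 7.02% in fasted FH, 6.10%, 5.88% and 6.47% in ob/ob vector and 10.4%, 10.3% and 10.5% in ob/ob FH libraries. The FH libraries were above the vector libraries in both models, and the spread within the ob/ob FH group was the smallest. Ces1c made 69.6% to 76.9% of family Ces1 in fasted vector, 60.4% to 65.7% in fasted FH, 49.4% to 59.8% in ob/ob vector and 57.4% to 61.6% in ob/ob FH libraries.

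In family Ces2 the leading gene changed with the model. Ces2a made 67.4% to 71.4% of the counts of the 3 genes in fasted vector and 59.7% to 64.6% in fasted FH libraries. In the ob/ob vector libraries its share was 19.6%, 58.9% and 15.4%, and in ob/ob FH 32.3%, 22.4% and 22.0%. Replicate 2 of the ob/ob vector group lay near the fasted libraries, and the other 5 ob/ob libraries were all below 33%. Ces2e made 55.3% to 69.7% in those 5 libraries, 31.3% in replicate 2 and 22.3% to 30.5% in the 6 fasted libraries. In family Ces3 the share of Ces3b was 18.8% to 27.8% in fasted vector and 19.4% to 25.6% in fasted FH, but 7.93% to 20.9% in ob/ob vector and 8.41% to 15.5% in ob/ob FH libraries. All 10 genes together took 0.353% to 0.364% of a fasted vector library and 0.451% to 0.567% of a fasted FH library. They took 0.527% to 0.615% of an ob/ob vector and 0.627% to 0.785% of an ob/ob FH library.

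**Figure D4:**
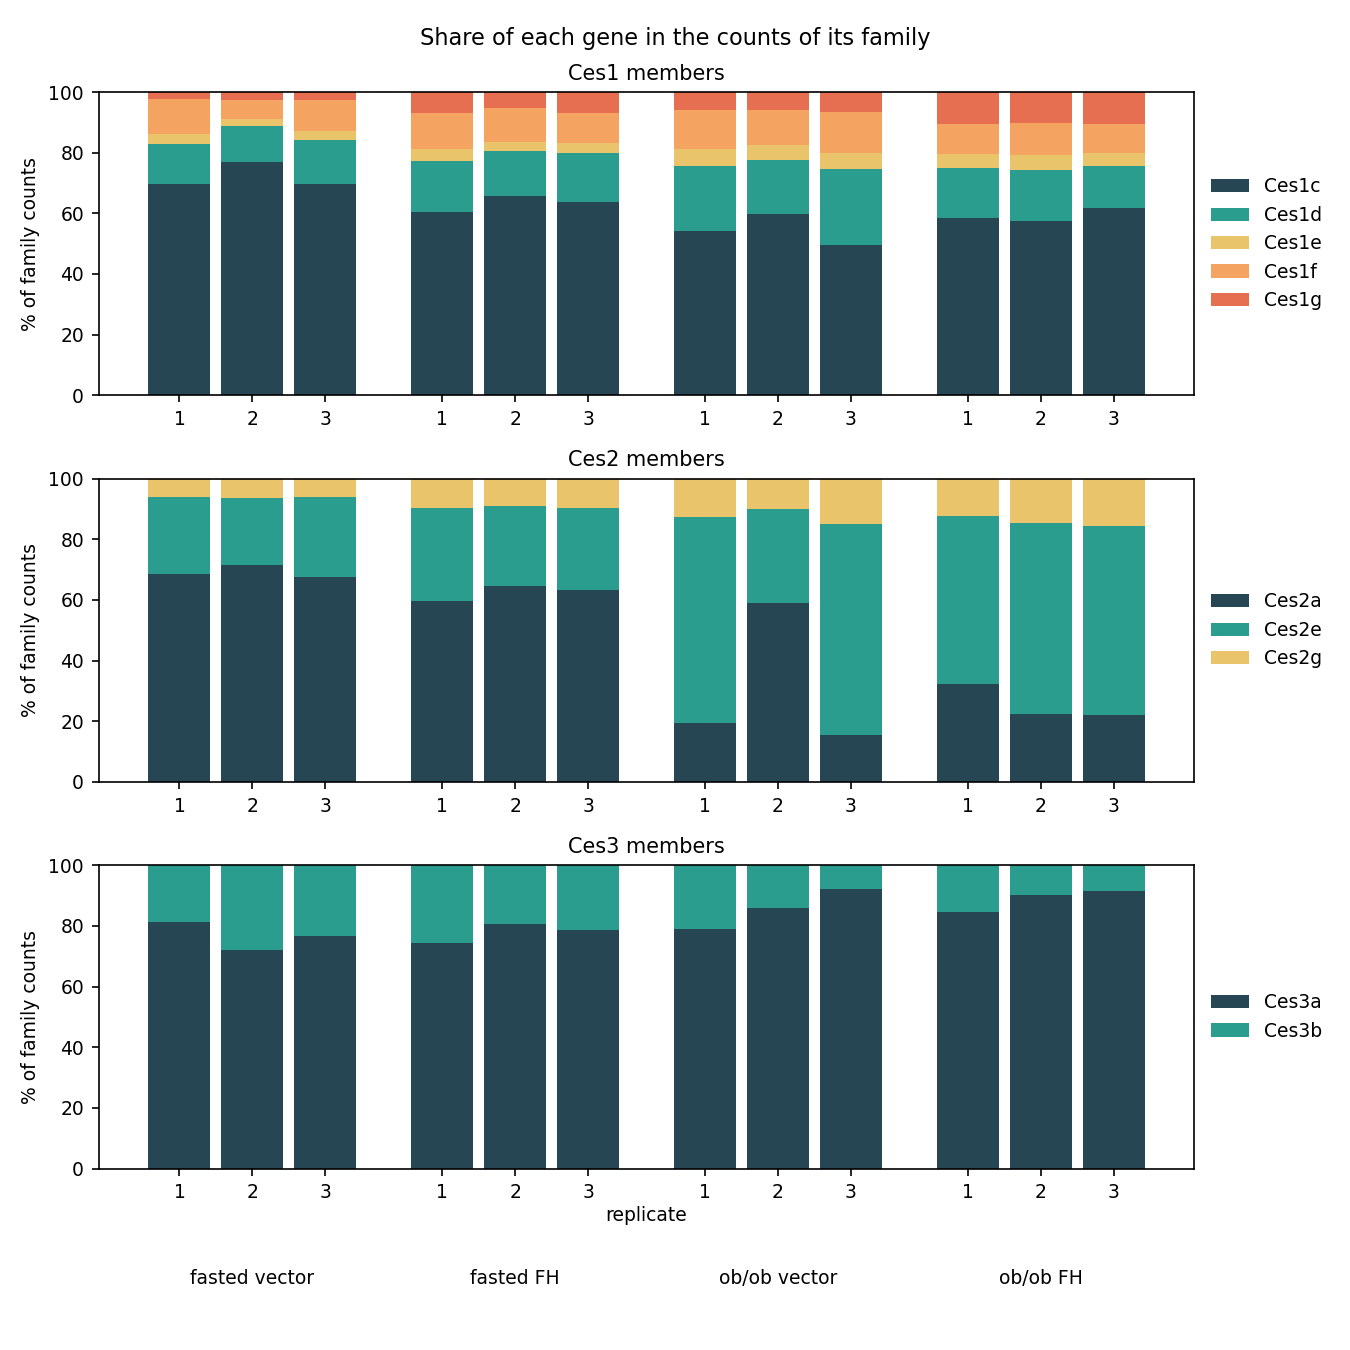
Share of each gene in the summed counts of the chosen genes of its family (percent, stacked bars, 1 bar per library, 3 replicates in each of 4 groups). Ces2a holds most of the Ces2 counts in the 6 fasted libraries and in ob/ob vector replicate 2, and Ces2e in the other 5 ob/ob libraries.

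Of the other 10 carboxylesterase genes 4 were tested, 2 (Ces2f and Ces5a) were at 0 counts in all libraries, and the rest were below 0.5 CPM in each group mean. Ces2c is a glyceride hydrolase best known from the intestine. Among the fasted mice it stood at 8.77 to 12.8 CPM where the vector alone was given, against 44.1 to 75.0 CPM where AAV8-FH was given. This was a difference of 2.51 on the log2 scale (SE 0.26, edgeR adjusted p = 7.56e-06). With FH in the ob/ob mice Ces2c rose by less, from 19.5 to 29.1 CPM to 35.8 to 67.4 CPM (1.07, SE 0.25, 0.00259). On library totals that rise did not pass (0.43, adjusted p = 0.112). The difference of the 2 effects passed the test (-1.44, SE 0.35, 0.0254). Ces1b, whose promoter is nearly that of Ces1c, did not pass with FH in either model (0.58, 0.0740, and 0.38, 0.243), and both values turned to -0.10 and -0.26 on library totals. It was lower in ob/ob than in fasted livers, at 43.4 to 98.1 against 112 to 157 CPM in the vector libraries (-1.08, SE 0.27, adjusted p = 0.0134) and in the FH libraries (-1.29, SE 0.27, 0.00201). Ces2h was higher in ob/ob vector than in fasted vector livers (2.61, adjusted p = 0.00726) and lower with FH in the ob/ob livers (-1.36, 0.0321), at group means of at most 1.64 CPM. Ces4a was not called in any of the 5 comparisons with TMM, and on library totals it was lower with FH in the ob/ob livers (-2.02, adjusted p = 0.0444, against -1.38, 0.168).

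Lists of genes around the carboxylesterases were counted for context, and their counts are read against the 27.4% and 25.8% of all genes that were higher with FH in the fasted and ob/ob livers. Of 20 other hydrolases of lipid and drug esters, 14 rose with FH in the fasted livers and 0 fell (median log2 0.66), and on library totals 4 rose and 5 fell (median -0.00). The 4 with the smallest adjusted p were Faah, which cleaves fatty acid amides (1.13), Abhd6, a monoacylglycerol hydrolase (2.28), Ddhd2, a triacylglycerol hydrolase best known from brain (1.03), and Pnpla2, the adipose triglyceride lipase (1.60), and all 4 stayed positive on library totals. With FH in ob/ob mice 8 rose and 1 fell (median 0.35, and on library totals 2 and 8). Those that rose were led by Faah (0.95), Abhd12, a lysophospholipid hydrolase (0.80, and 0.18 with adjusted p = 0.215 on library totals), and the lysosomal lipase Lipa (1.15), while the phospholipase Pnpla8 fell by 0.81 on the log2 scale.

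Of 16 tested genes of VLDL assembly and secretion, 11 rose and 1 fell with FH in the fasted livers (median 0.90, and on library totals 7 and 4), and 10 rose and 1 fell in the ob/ob livers (0.90, and 6 and 4). Dgat2, which makes triacylglycerol, had 1.47 and 1.42 in the 2 models. Mttp, which loads lipid onto the lipoprotein, had 1.78 and 1.69, and the cargo receptor Surf4 had 1.30 and 1.52. The lipid droplet protein Cideb rose by 3.06 and 2.76, from means of only 0.897 and 1.06 CPM in the fasted and ob/ob vector libraries. Tm6sf2 rose by 0.87 and 1.52, and its fasted rise did not pass on library totals (0.21, edgeR adjusted p = 0.190). The gene that fell in both was Apobec1, the editing enzyme of apolipoprotein B RNA (-1.04 and -0.61). All of these kept their sign on library totals.

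Of 14 nuclear receptors and factors of liver esterase genes, 8 rose and 0 fell with FH in the fasted livers (median 0.51), and 4 rose and 1 fell in the ob/ob livers (0.22). The 4 of 14 in the ob/ob livers are near the share of all genes. On library totals these counts were 2 and 3, and 2 and 7. Rxra, the partner of many nuclear receptors, had 1.64 and 1.04, and Cebpa, a factor of hepatocyte genes, had 1.37 and 1.19, positive on library totals as well. The xenobiotic receptor Nr1i2 had 0.62 in the fasted livers (adjusted p = 4.90e-04) and -0.06 on library totals, and the bile acid receptor Nr1h4 had 0.56 (0.00181) and -0.11. Among the ob/ob livers Hnf4a, a master factor of hepatocytes, rose by 0.77 (0.14 on library totals, adjusted p = 0.402), the sterol receptor Nr1h3 by 0.45 (-0.17, 0.181), and Nr1i3, another xenobiotic receptor, fell by 0.47 (adjusted p = 0.0252). Between the vector groups 2 of these genes were higher in the ob/ob livers (Nfe2l2 at 1.09 and Nr3c1 at 0.51) and 2 lower (Hnf4a at -0.92 and Nr1i2 at -0.42, which on library totals was -0.22 with adjusted p = 0.198).

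Of 15 drug metabolism genes of the endoplasmic reticulum, 10 rose and 1 fell in the fasted livers (median 0.72, and on library totals 5 and 3), and 9 rose and 1 fell in the ob/ob livers (1.05, and 6 and 4). Ugt1a1, which conjugates bilirubin, had 2.36 and 1.97, Por, which passes electrons to cytochrome P450 enzymes, 1.86 and 1.60, and the epoxide hydrolase Ephx1 2.44 and 1.75. All 3 stayed positive on library totals. Ugt1a6a fell in both (-1.20 and -2.25), and Cyp2b10, a target of xenobiotic receptors, passed the test in the ob/ob livers (4.54, adjusted p = 2.73e-05) and not in the fasted livers (0.72, 0.276), and the difference of the effects was 3.81 (0.0116). Between the vector groups 2 of the 15 were higher in the ob/ob livers and 3 lower, among them Por (-2.22). On library totals these counts were 3 and 3. Over all genes 9.36% were higher and 8.18% lower in that comparison with TMM.

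Endothelial and macrophage markers mostly fell with FH in the fasted livers and, with TMM scaling, mostly rose in the ob/ob livers. In the fasted livers 13 of 13 endothelial, 12 of 14 macrophage, 2 of 12 stellate and 1 of 11 lymphocyte markers fell and none rose, while 0 of 6 cholangiocyte markers were called. With ob/ob mice 8 endothelial markers rose and 1 fell, 10 macrophage and 5 stellate markers rose, 3 lymphocyte markers rose and 1 fell, and 0 cholangiocyte markers were called. On library totals the ob/ob counts of rises and falls became 3 and 5 (endothelial), 4 and 2 (macrophage), 2 and 2 (stellate) and 0 and 2 (lymphocyte), and in the fasted livers 13 endothelial, 13 macrophage, 8 stellate, 8 lymphocyte and 3 cholangiocyte markers fell and none rose. Of 3 tested adipocyte markers 1 fell in the fasted and 2 in the ob/ob livers, and the 1 tested intestinal or kidney gene was not called. On library totals these became 2 and 3 adipocyte markers, and the intestinal or kidney gene was lower in both models (-1.66 and -1.60). The part of these markers in the carboxylesterase differences was not tested.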

How the data were processed

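The authors' deposited table gives raw counts of reads per gene for 12 liver libraries, whose groups were taken from the labels. Per the labels' protocols, 1 μg of TRIzol-extracted RNA went into the Illumina Stranded mRNA Prep, Ligation kit, and the submitters' processing notes name STAR 2.7.11a and the build GRCm39. The counting tool, its annotation and its use of strand were not given in the sources used here.

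Genes were filtered with filterByExpr (10 counts, 15 in total), leaving 15228 of 56441. The edgeR 4.0.16 quasi-likelihood F test (R 4.3.3, TMM) was fitted with 1 mean per group over all 12 libraries (residual degrees of freedom: 8). Adjusted p is Benjamini-Hochberg over all genes tested, called under 0.05, and SE belongs to the log2 difference. Compared were FH and vector within each model, ob/ob and fasted with each virus, and the difference of the FH effects. FH comparisons in the 2 models and those between models share libraries. Family sums carry no test. Lengths are those of the longest protein-coding GENCODE M21 transcript, joined by symbol. The steps were tested on simulated data. No 2 libraries of the same group matched within sampling noise, and pairs across groups were not checked. Alternatives were RLE factors, library totals, no filter, DESeq2 1.42.0, the replicate number as a block, only the libraries compared and each library left out.

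The members and gene lists were chosen with earlier results of these data known. Named are the 10 members and Fh1, up to 4 called genes of the smallest adjusted p per list, and the 3 genes nearest in pattern to the member of each family with the highest mean CPM, of which 1 is not reported here. Genes named for sex, time of day and cell types, the other carboxylesterases, and values of listed genes in comparisons where the rule does not name them, were chosen after values were seen.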

Additional observations from a re-analysis of the deposited data

Results flagged for a closer look

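In these genes the FH effect in the ob/ob livers differed from that in the fasted livers by the test of the difference itself (edgeR, log2, ob/ob minus fasted). None of the 10 chosen carboxylesterases is among them. All these differences use the ob/ob FH libraries, in which FH and the sex markers cannot be told apart. Ces2c rose with FH by 2.51 in the fasted and 1.07 in the ob/ob livers, a difference of -1.44 (adjusted p = 0.0254), and its ob/ob rise was 0.43 on library totals (0.112). Abhd6 had 2.28 and 0.81, a difference of -1.47 (0.0134), Ddhd2 had 1.03 and -0.05, a difference of -1.08 (0.00711), and Pnpla8 had -0.14 and -0.81, a difference of -0.67 (0.0428). On library totals the Pnpla8 difference did not pass (-0.62, 0.0544) and its fasted value was lower (-0.81, adjusted p = 1.28e-04), the ob/ob value of Abhd6 did not pass (0.19, 0.456), and that of Ddhd2 was lower (-0.67, 0.00119). Cyp2b10 had 0.72 and 4.54, a difference of 3.81 (0.0116), and its group means were 1.94, 3.22, 0.873 and 20.1 CPM in fasted vector, fasted FH, ob/ob vector and ob/ob FH libraries. Fh1 had a difference of 1.13 (adjusted p = 0.0267). Of 13 genes listed for sex and time of day, 2 were called higher in the difference and 4 lower. The 2 higher were Xist, at 8.72 (0.00275), and the clock gene Arntl, at 2.85 (0.0334).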

How the results depend on the processing

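The replicate numbers did not pair the libraries: same-numbered libraries had correlations of their deviations from -0.147 to 0.156. With the replicate number as a block, 9, 8, 6 and 4 of the 10 genes were called higher in the fasted FH, ob/ob FH, vector and FH-library comparisons and 0 in the difference, and the block changed no call of a member.

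Of 360 values of the 10 genes with 1 library left out, 337 kept direction and side of the threshold, 11 lost and 4 gained the call, and 8 reversed. Under other settings 261 of 290 kept both, 10 lost and 18 gained the call, and 1 reversed. The reversed values were uncalled. In the ob/ob FH comparison they were Ces3a on library totals (-0.57) and with 1 library left out (range -0.29 to 0.48), and Ces3b (range -1.08 to 0.084). With 1 library left out, Ces3a in the vector comparison ranged from -0.075 to 0.55, and in the difference Ces2a from -0.57 to 0.73 and Ces2e from -0.42 to 0.028. The cause was not tested.

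On library totals 4 members were called higher in the ob/ob FH comparison. Over all genes, 1090 were then higher and 8488 lower in the fasted and 1040 and 8109 in the ob/ob FH comparison (4173 and 4208, and 3932 and 4245, with TMM), 2729 and 641 in the vector comparison (1426 and 1245), 1477 lower in the FH libraries (3288) and 361 lower in the difference (556). The log2 family ratios became 0.58 and 0.46 for Ces1 (fasted and ob/ob FH), 0.81, 0.77 and 0.60 for Ces2 (also between the FH libraries) and 0.39 for Ces3 (fasted). With no filter, 2 members were called lower in the vector, 3 in the FH-library and 3 in the difference comparison. Of 28566 genes 1421, 2870 and 754 were then lower, and 1095 were higher in the difference (726). DESeq2 called 2 members lower in the FH libraries and 2 in the difference, beside 3261 and 732 of 15218 genes. With only the libraries compared, 698 genes were higher and 546 lower between vector groups. Between FH groups 3 members were lower, beside 3269 of 13380 genes.

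With 1 library left out, members called higher in the ob/ob FH comparison ranged from 5 to 8, and members called lower from 0 to 1 in the vector, 0 to 2 in the FH-library and 0 to 2 in the difference comparison. All genes ranged from 848 to 1872 higher and 793 to 1540 lower (vector), 2170 to 2705 lower (FH libraries), and 376 to 875 higher and 190 to 776 lower (difference).

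Limits: 3 libraries a group, an overall shift that depends on the scaling, the alike copies Ces3a and Ces3b, 1 ob/ob vector library that stands apart, and sex markers that go with the ob/ob FH group. Depth limits no member, since the lowest count was 163.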

Other observations

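Genes nearest in pattern were sought for the member of each family with the highest mean CPM over the 12 libraries. They were taken from genes of at least 10 mean CPM, leaving out the 10 members and gene models without a name. The measure was the root mean square difference of gene-centred log2 CPM over the 12 libraries. Nearest to Ces1c were Copz1, a coat protein of transport vesicles (0.123), Acp5, an acid phosphatase (0.124), and Gc, the vitamin D-binding protein of plasma (0.151). Gc had group means of 3274 CPM in fasted vector, 8194 in fasted FH, 3869 in ob/ob vector and 9251 in ob/ob FH libraries. For family Ces2 that member was Ces2e, although Ces2a stood above it in the 6 fasted libraries and in ob/ob vector replicate 2. Among the nearest to Ces2e were Fads1, a fatty acid desaturase (0.187), and the glutathione transferase Gstm1 (0.254). Fads1 went from 136 to 397 CPM with FH in the fasted and from 405 to 1024 CPM in the ob/ob livers. Nearest to Ces3a were Homer2 (0.234), Alas2, an enzyme of haem synthesis (0.239), and Klkb1, plasma prekallikrein (0.253), each higher with FH in the fasted group means and within 1.1 times of the vector mean in the ob/ob groups. These are descriptions of likeness over libraries that share groups and depth.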
